A study of Mus musculus with 4 samples.

Results

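The replisome genes described here are Gins1, Gins2, Gins3, Gins4, Cdc45, Pola1, Prim1, Pold1, Pole and Pcna, whose transcripts were compared in erythroblasts of Parp2 knockout mice and of WT mice. Where several probe sets were annotated to a symbol alone, the one with the highest mean over the 4 arrays stood for the gene, and all 10 genes were found among the 19938 genes measured in this way. The cells were bone marrow cells sorted as Ter119+CD71+, which takes nucleated red cell precursors that carry Ter119, a glycophorin-associated surface protein, and CD71, the transferrin receptor. There were 2 arrays of Parp-2-/- cells and 2 arrays of WT cells, all on the C57BL/6 strain background, with no treatment named. The labels give neither the age and sex of the animals nor the design of the Parp2 allele, and they do not say whether the arrays of a genotype came from separate animals. The p-values therefore rest on a spread between samples that may be technical.

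The replisome is the assembly that copies DNA at a replication fork. Its motor is the CMG helicase, made of Cdc45, the MCM ring and the GINS complex, which unwinds the parental strands. DNA polymerase alpha and primase lay down primers, polymerase epsilon extends the leading strand, polymerase delta extends the lagging strand, and PCNA is the sliding clamp that holds polymerases and many other factors on DNA. Erythroblasts divide rapidly as they mature, and the title of the study links Parp2, a poly(ADP-ribose) polymerase activated by DNA breaks, to the limitation of replicative stress in the erythroid lineage. The comparison addressed here was whether the transcripts of the core replication machinery differed between the genotypes. All values are normalised log2 levels or differences of them, and a level is compared only with the same gene on other arrays.

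None of the 10 replisome genes passed the test for a difference between the genotypes. Limma, with Benjamini-Hochberg adjustment over all 23410 annotated probe sets, called 0 of the 10 genes at an adjusted p under 0.05, and it called 0% of all probe sets. The limma adjusted p was 0.9999 for each of the 10 genes. At an unadjusted p under 0.05 the counts were again 0 of 10 genes, against 2.08% of all probe sets. For 9 of the 10 genes the knockout and WT arrays overlapped. Gins4 was the exception, with each knockout array above each WT array, a pattern shown by 16.4% of all genes. The opposite pattern was shown by 0 of the 10 genes and by 9.62% of all genes. In all 10 genes the difference between the genotype means was smaller than the larger of the 2 gaps between arrays of the same genotype, as it was in 85.4% of all genes. With 2 arrays against 2, a two-sided exact permutation test cannot give a p below 0.333.

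The arrays themselves bear on every value that follows. Parp2, the targeted gene, read 7.11 and 6.70 on the knockout arrays (replicates 1 and 2) and 8.24 and 7.65 on the WT arrays. The groups did not overlap, in the direction of the labels, although the gene did not pass the test (limma adjusted p = 0.9999). Knockout replicate 2 stood apart: its interquartile range over the annotated probe sets was 1.98, against 2.94 on knockout replicate 1 and 2.62 to 2.91 on the WT arrays. Among genes at or above the median level, 64.3% read lower on that array than on the mean of the other arrays, against 15.5% of the dimmer genes. Exceptions were frequent: of the 9 measured erythroblast markers, all bright, 1 was lowest there. Red cell genes were present on all arrays; the mean log2 level of the 9 measured erythroblast markers was 10.4 and 10.8 in the knockout and 9.99 and 10.9 in WT, with a median difference of +0.13 and the largest difference in Alas2 (+0.55). Without WT replicate 1 the median of these markers was -0.41, without WT replicate 2 it was +0.54, and without knockout replicate 2 it was -0.07. WT replicate 1 was the lowest array for 6 of these 9 markers, and for 5247 of all 19938 genes. Most measured markers of other blood cells read lower in the knockout, although limma called 0 of them at an adjusted p under 0.05. Of all genes, 9.62% had both knockout arrays below both WT arrays. The mean level of 12 neutrophil markers was 9.61 and 8.89 on knockout replicates 1 and 2, and 10.9 and 10.2 on WT replicates 1 and 2. WT replicate 1 was the highest array for 10 of the 12, and for 4377 of all 19938 genes. Below WT without overlap were 11 of the 12 genes, with a median difference of -1.46 over the list, led by Mmp9 (-2.15). Without knockout replicate 2 this median was -0.94, and Mmp9 was at -1.17. The mean level of 9 B cell markers was 6.03 to 6.09 in the knockout and 6.997 to 7.48 in WT, with 7 of 9 without overlap and a median of -1.40, led by Vpreb1 (-2.90), while Pax5 (+0.44) and Cd22 (+0.13) read higher. Without WT replicate 1 Pax5 was at -0.21 and Cd22 at -0.29. The mean level of 9 monocyte and macrophage markers was 6.15 to 6.96 in the knockout and 7.41 to 7.43 in WT. Of the 9, 5 were without overlap, and the median was -1.02, or -0.56 without knockout replicate 1. Ms4a6c (-1.98) led, while Vcam1 (+0.59) and Cd14 (+0.07) read higher. Vcam1 was at -0.45 without knockout replicate 2 and -0.56 without WT replicate 1, and Cd14 ranged from -0.96 to +1.09 with 1 array left out. The annotated probe sets had medians of 5.23 to 5.49 on the arrays. Near these lay Vpreb1 (5.46 and 5.17) and Ms4a6c (5.79 and 4.86) in the knockout, and Cd14 read 4.52 to 6.57 over the 4 arrays. The part of these other blood cells in the replisome values was not tested. In sorted bulk cells a smaller share of replicating cells and less RNA per cell cannot be told apart.

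The GINS complex is built from the products of Gins1, Gins2, Gins3 and Gins4, each present in every complex, and joins Cdc45 in activating the MCM ring. Its 4 genes did not vary alike. Gins4, which encodes the Sld5 subunit, read 10.02 and 9.94 on knockout replicates 1 and 2, and 8.72 and 9.74 on WT replicates 1 and 2. Both knockout arrays were close together and above both WT arrays, but only WT replicate 1 lay far below the rest. The difference was +0.75 ± 0.45 (SE, n = 2 per genotype), a 1.68-fold higher level in the knockout, with a 95% interval of -0.31 to 1.81 (limma adjusted p = 0.9999). Without WT replicate 1 the difference was +0.24, and without WT replicate 2 it was +1.26. Gins4 had the lowest unadjusted limma p of the 10 genes, 0.138, which ranked 1442 among the 23410 probe sets.

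Gins3, which encodes the Psf3 subunit, read 8.14 and 6.65 in the knockout and 8.58 and 7.70 in WT. Knockout replicate 2 was the lowest array by a wide margin, while knockout replicate 1 lay between the WT arrays. The difference was -0.75 ± 0.59 (SE, n = 2 per genotype), with a 95% interval of -2.14 to 0.65 (limma adjusted p = 0.9999). It was as large as that of Gins4 with the opposite sign, but without knockout replicate 2 it was 0.00073, so the lower mean rested on that array. Gins2, which encodes Psf2, had the same order of arrays: 9.87 and 8.36 in the knockout, and 10.07 and 8.96 in WT. In both genes replicate 1 of each genotype was above replicate 2 of both genotypes, and the gap between the 2 arrays of a genotype, 1.51 in the knockout and 1.11 in WT for Gins2, exceeded the difference between genotypes, -0.39 ± 0.62 (SE). Gins1, which encodes Psf1, read 8.13 and 7.81 in the knockout and 8.17 and 7.78 in WT. These values nearly coincided between the genotypes. The difference was -0.01, with a 95% interval of -0.90 to 0.89, so that a change of up to 0.89 on the log2 scale in either direction lay inside the interval.

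The contrast between Gins4 and Gins3 was also read within each array. The level of Gins4 minus that of Gins3 was 1.88 and 3.29 on the knockout arrays, and 0.14 and 2.04 on the WT arrays. Its size on an array is no ratio of transcripts, and only its variation between arrays was read. The groups overlapped, because WT replicate 2 lay above knockout replicate 1. The pair was picked after its values were seen, so this is a description without a test.

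**Figure D1:**
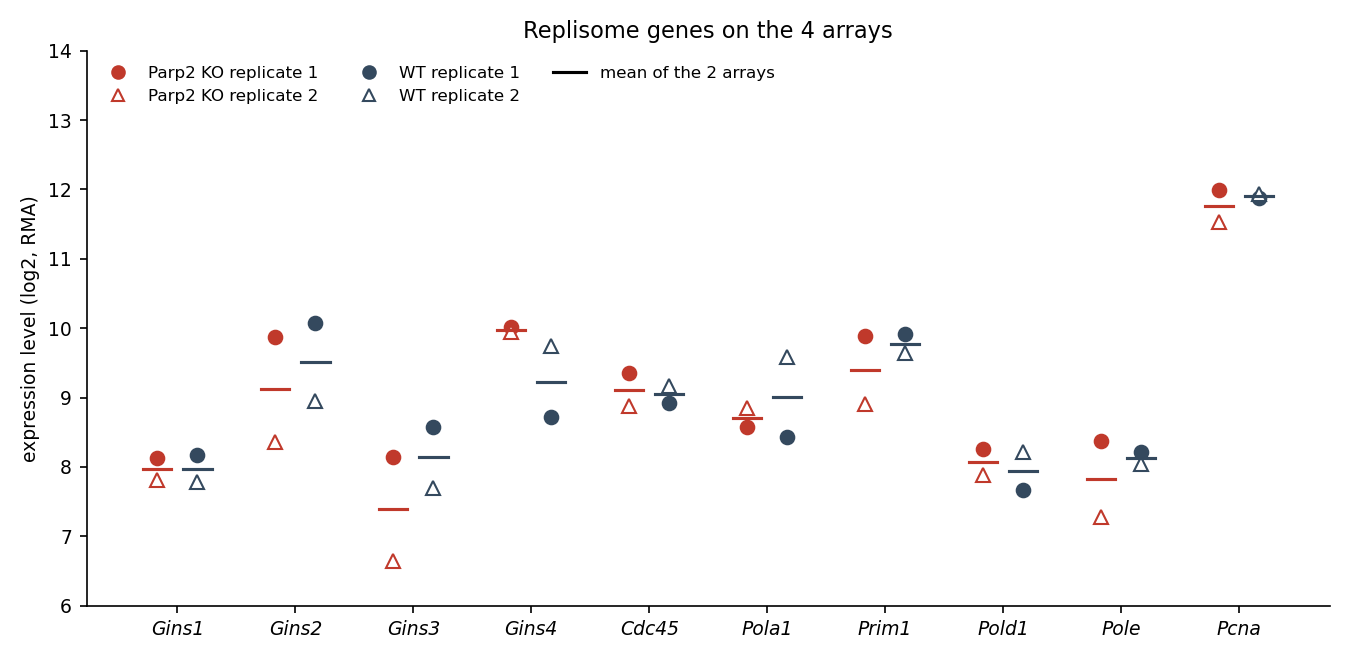
Normalised log2 level (vertical axis) of the 10 replisome genes (horizontal axis) on the 2 Parp2 KO arrays (red, left) and the 2 WT arrays (dark blue, right); filled circles are replicate 1, open triangles replicate 2, and bars the mean of 2 arrays. The arrays of the genotypes overlap for 9 genes, and Gins4 is the gene whose knockout arrays, 10.02 and 9.94, both lie above WT, 8.72 and 9.74.

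Cdc45 encodes the protein that joins the MCM ring and GINS to complete the helicase. It read 9.35 and 8.88 in the knockout and 8.92 and 9.17 in WT, so that the knockout arrays were the highest and the lowest of the 4. The difference was +0.07 ± 0.38 (SE), with a 95% interval of -0.83 to 0.97. Leaving out single arrays moved it between -0.17 and +0.31.

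Primer synthesis was represented by Pola1, the catalytic subunit of DNA polymerase alpha, and Prim1, the catalytic subunit of primase, which work in the same complex. Their array patterns differed. Pola1 read 8.58 and 8.84 in the knockout and 8.43 and 9.58 in WT. Here the WT arrays were the lowest and the highest, and the knockout arrays lay between them. The difference was -0.30 ± 0.47 (SE), and without WT replicate 2 it was +0.28. Prim1 read 9.89 and 8.90 in the knockout and 9.91 and 9.64 in WT. Knockout replicate 1 matched the WT arrays and knockout replicate 2 was lower. The difference was -0.38 ± 0.45 (SE), and without knockout replicate 2 it was +0.12.

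The main replicative polymerases were represented by their catalytic subunits. Pole, of polymerase epsilon, read 8.38 and 7.28 in the knockout and 8.21 and 8.04 in WT. The knockout held both the highest and the lowest array. The difference was -0.30 ± 0.46 (SE), and without knockout replicate 2 it was +0.25. Pold1, of polymerase delta, read 8.26 and 7.88 in the knockout and 7.67 and 8.21 in WT. Its highest value was again on knockout replicate 1, while its lowest was on WT replicate 1. The difference was +0.13 ± 0.39 (SE), with a 95% interval of -0.80 to 1.07.

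Pcna, the sliding clamp, read 11.99 and 11.54 in the knockout and 11.88 and 11.93 in WT. The 2 WT arrays were 0.053 apart, the smallest gap between WT arrays in any of the 10 genes, and the knockout arrays lay on either side of them. The difference was -0.14 ± 0.37 (SE), with a 95% interval of -1.02 to 0.74, and without knockout replicate 2 it was +0.088. A further probe set listed to Pcna alone read 11.99 and 11.53 in the knockout and 11.86 and 11.92 in WT. Because the probe sets gave almost the same values on every array, they cannot be counted as separate measurements. The other 9 genes had 1 probe set each.

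**Figure D2:**
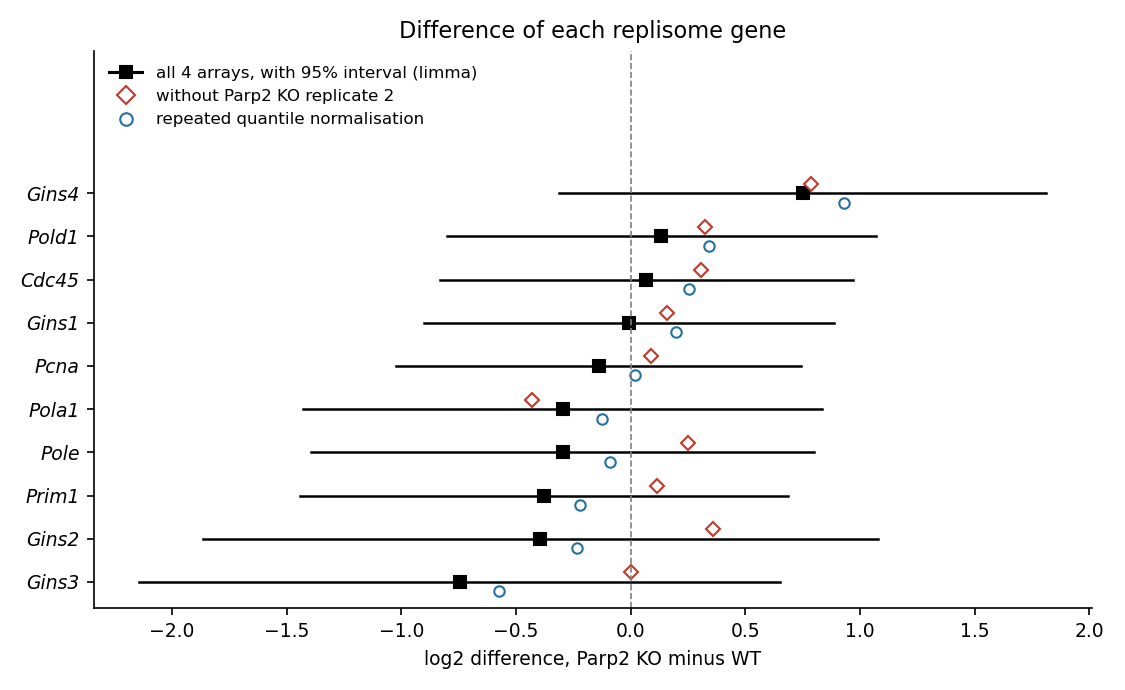
Difference in log2 level, Parp2 KO minus WT (horizontal axis), of each replisome gene (vertical axis); black squares with lines are the limma estimate from all 4 arrays and its 95% interval, red diamonds the estimate without Parp2 KO replicate 2, and blue circles that after repeated quantile normalisation. Every interval includes 0. Without Parp2 KO replicate 2, 9 of the 10 genes are above 0, Gins3 by only 0.00073, and Pola1 is below it.

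Over the 10 genes together, 3 were higher in the knockout (Gins4, Pold1 and Cdc45) and 7 were lower, with a median difference of -0.22, against a median of +0.08 over all 19938 genes. This sign followed the knockout array used. Without knockout replicate 2, 9 of the 10 genes were higher, Gins3 by only 0.00073, and the median was +0.20. Without knockout replicate 1, 9 of the 10 were lower and the median was -0.27. After repeated quantile normalisation, which gives all arrays the same distribution, 5 were higher and 5 lower, with a median of -0.04. Knockout replicate 2 was the lowest array for 6 of the 10 genes (Gins2, Gins3, Cdc45, Prim1, Pole and Pcna) and the highest for 0 of them. Knockout replicate 1 was the highest array for 5 genes (Gins4, Cdc45, Pold1, Pole and Pcna) and the lowest for 0. WT replicate 1 was the lowest for Gins4, Pola1 and Pold1.

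The replisome genes were then set beside other genes of the same brightness. The mean levels of the replisome genes ran from 7.77 for Gins3 to 11.8 for Pcna, and 2951 other genes had a mean inside that range, a group formed after the values were seen. In the knockout 3 of the 10 replisome genes were higher, against 30.9% of these others, and the median differences were -0.22 and -0.15. Knockout replicate 2 was the lowest array for 6 of the 10 replisome genes, against 59.7% of the others. Without knockout replicate 2, 9 of the 10 replisome genes (Gins3 by only 0.00073) and 63.2% of the others were higher, with medians of +0.20 and +0.15. Without knockout replicate 1, 1 of the 10 replisome genes and 23.7% of the others were higher, with medians of -0.27 and -0.46, and after repeated quantile normalisation the medians were -0.04 and +0.02. No difference between the replisome genes and these genes was tested. The pattern of Gins4 was less common at this brightness than overall: 2.95% of the 2951 genes had both knockout arrays above both WT arrays, and 12.03% had both below.

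**Figure D3:**
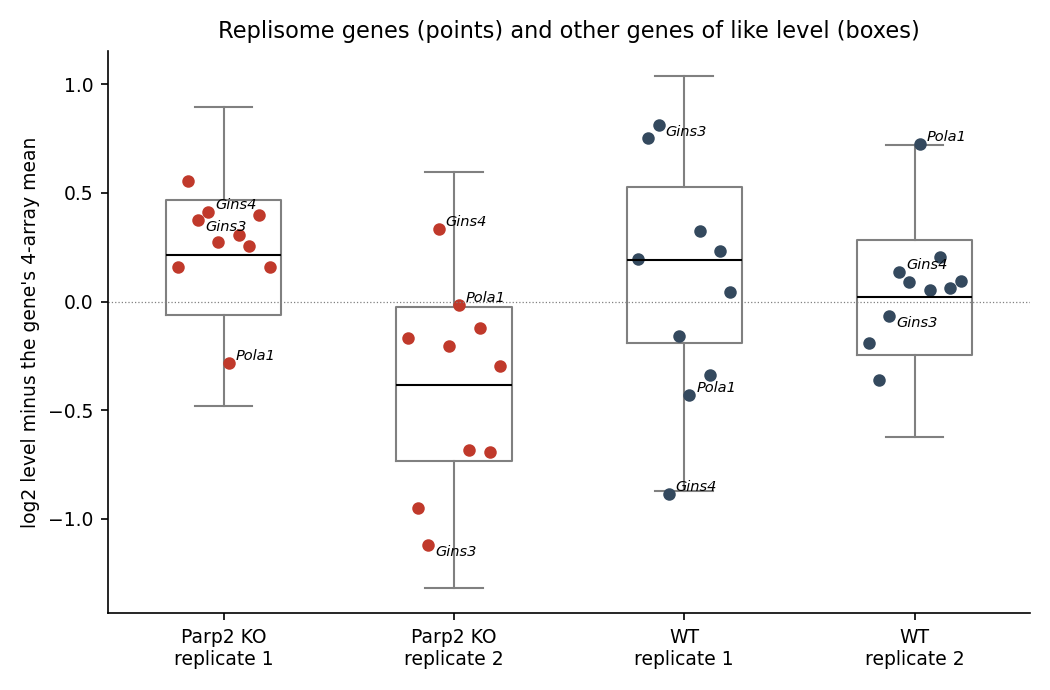
Level on each array minus the mean of the gene over all 4 arrays (vertical axis, log2), for Parp2 KO replicates 1 and 2 and WT replicates 1 and 2 (horizontal axis); points are the 10 replisome genes, and boxes with whiskers show the 5th, 25th, 50th, 75th and 95th percentiles of 2951 other genes of like level. On Parp2 KO replicate 2 the median of the replisome genes is -0.25, with Gins4 above 0, and that of the other genes is -0.39.

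Promoter sequences were examined because replication genes are well known targets of E2F transcription factors, which switch on S phase genes, and because Gins3, Prim1 and Pola1 illustrate the different array patterns described above. RefSeq promoter windows of the build GRCm38.p6, from 250 bases before to 50 bases after the annotated start, were matched for 6 of the 10 genes: Gins3, Cdc45, Pola1, Prim1, Pold1 and Pcna. The core letters of the E2F motif were searched on either strand as TTCCCGC, the form found most often in these windows, and also in the form TTCGCGC, the form TTGCCGC and the form TTGGCGC. A core occurred in 4 of these 6 windows and in 9.57% of all 32851 windows of the same length. The CCAAT box, the letters CCAAT on either strand, occurred in 5 of the 6 windows and in 37.4% of all windows. The windows of Gins3, Prim1 and Pola1 follow, read 5′ to 3′ on the strand of the gene, with the E2F core letters in capitals. They lie at chr8:95633309-95633608 on the plus strand for Gins3, at chr10:128014965-128015264 on the plus strand for Prim1, and at chrX:93632106-93632405 on the minus strand for Pola1.
Gins3: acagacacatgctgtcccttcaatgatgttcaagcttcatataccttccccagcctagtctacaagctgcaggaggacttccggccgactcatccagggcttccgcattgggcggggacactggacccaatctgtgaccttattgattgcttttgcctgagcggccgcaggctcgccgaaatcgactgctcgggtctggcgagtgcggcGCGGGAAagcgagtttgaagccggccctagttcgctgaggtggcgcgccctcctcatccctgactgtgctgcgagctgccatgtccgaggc
Prim1: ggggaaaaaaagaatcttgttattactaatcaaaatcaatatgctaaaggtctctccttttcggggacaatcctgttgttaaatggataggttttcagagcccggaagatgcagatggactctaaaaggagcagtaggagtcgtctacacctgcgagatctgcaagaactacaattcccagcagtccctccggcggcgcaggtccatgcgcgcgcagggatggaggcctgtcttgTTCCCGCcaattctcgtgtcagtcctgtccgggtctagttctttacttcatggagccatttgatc
Pola1: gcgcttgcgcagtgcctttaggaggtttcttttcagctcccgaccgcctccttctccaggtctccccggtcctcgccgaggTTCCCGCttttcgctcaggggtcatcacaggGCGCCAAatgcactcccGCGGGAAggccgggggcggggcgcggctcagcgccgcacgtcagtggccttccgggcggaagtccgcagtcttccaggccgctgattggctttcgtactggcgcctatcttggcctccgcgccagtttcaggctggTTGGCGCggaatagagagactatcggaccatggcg
The Gins3 window held 1 E2F core, starting 41 bases before the annotated start, and 2 CCAAT boxes. The Prim1 window held 1 core, starting 15 bases before the start, which shares its last base with a CCAAT box. The Pola1 window held 4 cores, 3 of them before the start and 1 starting 15 bases after it. Pold1 had 1 core and no CCAAT box, and in the Cdc45 and Pcna windows these core letters were not found. Genes with a core were among those lowest on knockout replicate 2 (Gins3 and Prim1) and among those lowest on WT replicate 1 (Pola1 and Pold1). A match of letters is a description and not a binding site, and 6 windows are too few for a comparison.

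The rest of the replication machinery was read from 8 further lists with 50 genes, all of which had a probe set of their own. Of these 50 genes, limma called 0 at an adjusted p under 0.05, and 0 had an unadjusted p under 0.05. In the knockout 11 were higher and 39 lower, with a median difference of -0.13. Of the 50, 4 lay below WT without overlap and 0 above it, against 9.62% and 16.4% of all genes. Among the 2951 other genes within the replisome genes' range of levels, these shares were 12.03% and 2.95%, and 30.9% were higher. Not all of the 50 genes lay inside that range. Knockout replicate 2 was the lowest array for 39 of the 50 and the highest for 0, and knockout replicate 1 was the highest for 24. For the 2951 genes, knockout replicate 2 was the lowest array in 59.7% and the highest in 6.51%, and knockout replicate 1 the highest in 34.8%. The direction followed the knockout array here too: without knockout replicate 2, 40 of the 50 were higher with a median of +0.23, and without knockout replicate 1, 49 of the 50 were lower with a median of -0.46. Without WT replicate 1 the median was -0.04, and without WT replicate 2 it was -0.28.

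The partner subunits of the polymerases were lower for 7 of 8 genes, with a median of -0.30, but without knockout replicate 2 they were higher for 6 of 8, with a median of +0.23. Pole3, a histone-fold subunit of polymerase epsilon, differed by -0.65, and its partner Pole4 by -0.50. Pole4 read 7.83 and 7.95 in the knockout and 8.52 and 8.28 in WT, and was the only gene of this list whose groups did not overlap. Its difference ranged from -0.63 to -0.38 with 1 array left out, where its sign could not change. The accessory subunits of polymerase delta Pold4 and Pold2 differed by -0.58 and -0.55, whereas Pold3 differed by +0.07. Pola2 and Prim2, the partners of Pola1 and Prim1, differed by -0.10 and -0.06. The 6 genes of the MCM ring, which is the unwinding engine that GINS and Cdc45 activate, had a median of -0.08 and ranged from -0.34 (Mcm3) to +0.12 (Mcm2), all with overlapping groups. Without knockout replicate 2 all 6 were higher, with a median of +0.25, and without WT replicate 1 the median was +0.09.

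Factors that assemble and fire the helicase had a median of -0.08 over 10 genes, and of +0.18 without knockout replicate 2. Donson, which helps to deliver GINS to the MCM ring, differed by -0.61, with 7.59 and 8.14 in the knockout and 8.33 and 8.61 in WT. Topbp1, a scaffold for helicase activation and for the ATR checkpoint, differed by -0.28, and Wdhd1, which links the helicase to polymerase alpha, by -0.44. Donson and Topbp1 lay below WT without overlap. With 1 array left out Donson ranged from -0.89 to -0.33 and Topbp1 from -0.44 to -0.12, and neither sign could change. For Topbp1 the separation was narrow, with knockout replicate 1 at 9.320 and WT replicate 2 at 9.323. Clamp loaders and the unloader Atad5, which place PCNA on DNA and take it off, had 7 of 9 genes lower and a median of -0.19. Without knockout replicate 2 all 9 were higher, with a median of +0.41, and without WT replicate 1 the median was +0.05. Rfc3 differed by -0.60 and Rfc5 by -0.46, and for Rfc3 the knockout arrays were 9.25 and 7.10 against 9.41 and 8.15 in WT. RPA, which coats single-stranded DNA, had Rpa1 at +0.27, Rpa3 at -0.14 and Rpa2 at -0.11, a median of -0.11, and all 3 were higher without knockout replicate 2 (median +0.80); without WT replicate 1 the median was +0.25.

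Genes of Okazaki fragment maturation had a median of -0.09 over 6 genes, with Rnaseh2b, a subunit of the enzyme that removes RNA from DNA, at -0.26, the DNA ligase gene Lig1 at +0.18 and the flap endonuclease gene Fen1 at -0.15. The median was +0.20 without knockout replicate 2 and likewise without WT replicate 1. The fork protection genes Timeless, Tipin and Clspn differed by -0.54, -0.34 and -0.17, a median of -0.34, and only for Clspn did the groups not overlap, narrowly, with knockout replicate 2 and WT replicate 1 both at 9.31. The median was -0.25 without knockout replicate 2 and without WT replicate 1, and -0.76 without knockout replicate 1. All 5 PCNA partners were lower, with a median of -0.25, led by Pclaf, a PCNA-associated factor, at -0.46 and Chaf1b, a chaperone that deposits histones on new DNA, at -0.38; their groups overlapped. Knockout replicate 2 was the lowest array for all 5, and without it 4 of 5 were higher, with a median of +0.14.

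General proliferation markers had a median nearer to 0, -0.03 over 11 measured genes. Without WT replicate 2 the median was +0.10, and without WT replicate 1 it was -0.30. Of the 11 genes 1 lay above WT without overlap and 2 below, where 16.4% and 9.62% of all genes did so. Among the 2951 genes within the replisome genes' range of levels the shares were 2.95% and 12.03%. Bub1, a spindle checkpoint kinase, differed by -0.53, Aurka, a mitotic kinase, by -0.37, and cyclin E1, Ccne1, by +0.39. Bub1 was at -0.067 without WT replicate 2, and Ccne1 at +0.087 without knockout replicate 1. Their groups were narrowly apart: replicate 1 of Bub1 read 8.71 in the knockout and 8.73 in WT, and replicate 2 of Ccne1 read 9.82 and 9.78. Aurka ranged from -0.45 to -0.28 with 1 array left out. Mki67 read 11.20 and 11.73 in the knockout and 10.64 and 12.03 in WT, so that the WT arrays were its lowest and highest. Early erythroid and progenitor genes were lower for 7 of 8 genes, with a median of -0.70, and 0 of the 8 passed the adjusted limma test. Of the 8, 3 lay below WT without overlap and 1 above it, where 9.62% and 16.4% of all genes did so. The gene above WT was Hmga2 (+0.53), at 5.59 and 5.81 in the knockout and 5.13 and 5.20 in WT. Without knockout replicate 2 the median of the 8 genes was -0.40, as it was without WT replicate 1. It was -1.21 without knockout replicate 1 and -1.23 without WT replicate 2. Cdk6 differed by -1.45, but by -0.085 without knockout replicate 2. Kit differed by -1.26, but by -0.21 without WT replicate 1. It read 8.09 on that array and 5.73 to 5.98 on the others. Ccnd2 differed by -1.07, and by -0.77 to -1.37 with 1 array left out. Myc differed by -0.60, but by +0.57 without knockout replicate 2 and +0.61 without WT replicate 1. The mean level of the 8 genes was 6.70 and 6.08 in the knockout and 7.30 and 6.79 in WT, and their part in the replisome values was not tested.

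**Figure D4:**
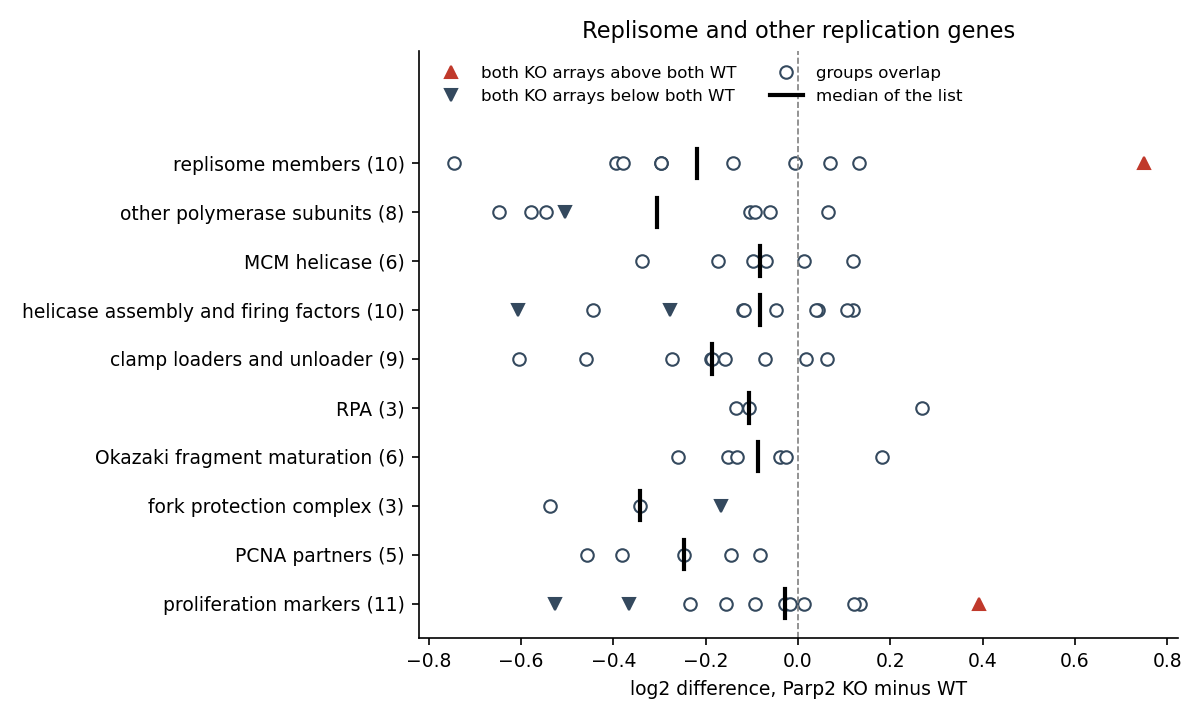
Difference in log2 level, Parp2 KO minus WT (horizontal axis), of each measured gene in the replisome set, 8 further replication lists and the proliferation markers (vertical axis, with the number of genes); triangles mark genes whose groups do not overlap, open circles those that overlap, and black bars the median of each list. The replisome genes span -0.75 to +0.75, and their median of -0.22 lies among the medians of the other replication lists, -0.34 to -0.08.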

How the data were processed

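RNA (100 ng per sample, per the labels' protocols) was measured on 4 Affymetrix whole-transcript arrays. The authors deposited 1 table of log2 values with 35511 probe sets, used here without further normalisation; RMA, limma and R 3.0.2 are named per the submitters' processing notes, with no role or order given, and no genome build is named there. Symbols came from the platform annotation: 21789 probe sets had 1 symbol, 1621 several and 12101 none. The genotypes were fitted in R 4.3.3 with limma 3.58.1 (no covariate) over the 23410 annotated probe sets, with 2 residual and 4.77 prior degrees of freedom. Calls were made at a Benjamini-Hochberg adjusted p under 0.05. The script was also run on simulated arrays, whose noise was independent and of equal spread on every array. They therefore did not cover the narrower range of knockout replicate 2. The 10 replisome genes and all lists were chosen with earlier results of these data known. Named were all 10 genes, Parp2, and from each list the members with the largest differences. Pole4, Pold3, Pola2, Prim2, Mki67, Hmga2, Myc, Pax5, Cd22, Vcam1 and Cd14 were named beyond that rule after their values were seen. Tried as alternatives were a block for the replicate number, each array left out, median centring, repeated quantile normalisation, brighter probe sets only, array weights, trended and robust moderation, every row of the table, an adjusted p under 0.1 and the mean over probe sets. The number of arrays limits the precision.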

Additional observations from a re-analysis of the deposited data

How the results depend on the processing

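The count of replisome genes past the limma test was 0 under every alternative run, and the count with an unadjusted p under 0.05 was 1 without knockout replicate 1 and 0 in the others. The count over all probe sets, 0 from all 4 arrays, was 8 with trended and robust moderation and 0 to 62 with 1 array left out (62 without WT replicate 2, 5 without WT replicate 1, 0 without either knockout array). The numbers in the titles are not said to mark shared animals or days, and only 2 pairs share a number; the differences between replicates 2 and 1 correlated at 0.468 between the genotypes across probe sets. A replicate block for this number gave 274 calls, 50 of them higher and 224 lower in the knockout, with 0 replisome genes among them, whose lowest adjusted p was 0.911. The median difference of the replisome genes, -0.22, ranged from -0.27 to 0.20 with 1 array left out, was -0.29 after median centring and -0.04 after repeated quantile normalisation. Gins4 was higher in all alternatives, but this was fixed in advance for each array left out, because its groups do not overlap. The same holds for the sign of every listed gene without overlap, such as Pole4, Donson, Topbp1, Aurka and Ccnd2. The difference of Gins4 was +0.68 after median centring and +0.93 after repeated quantile normalisation, the alternatives that change the values themselves. With 1 array left out the differences ranged from -0.20 to 0.19 for Gins1, -1.15 to 0.36 for Gins2, -1.49 to 0.00073 for Gins3, -0.17 to 0.31 for Cdc45, -0.87 to 0.28 for Pola1, -0.87 to 0.12 for Prim1, -0.14 to 0.40 for Pold1, -0.84 to 0.25 for Pole and -0.37 to 0.088 for Pcna. After repeated quantile normalisation Gins1 was at +0.20 and Pcna at +0.019, and after median centring Cdc45 was at -0.0041. The medians of the further lists with 1 array left out, chosen after seeing the data, stand beside each list. The cause of these sign changes was not tested. A lone array left in a genotype is assumed to vary like the other genotype.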
